A study of Mus musculus with 16 samples.

Results

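Tumors of Eμ-xbp-1s mice were compared with splenic B cells of young mice that carry the same transgene. Of the 16 arrays of the series, 11 were used: 5 of B220-positive splenic B cells from 20-week-old Eμ-xbp-1s mice, called B cells below, and 6 of Eμ-xbp-1s multiple myeloma, called MM, chosen by their titles. The transgene is carried by both groups. It holds the mouse cDNA of the spliced form of XBP-1 (XBP-1s) behind an immunoglobulin VH promoter and Eμ enhancer, which act throughout B cell development and in some T cells, with farnesylated eGFP behind an IRES, in C57BL/6 mice. Independent founder lines were used, but the labels do not say which line, or how many mice, the arrays came from, and no age is given for MM. The remaining 5 arrays, of nontransgenic B cells at 20 weeks, serve here as reference levels. The B cells were selected with magnetic beads, whereas the sources name no sort, and no site, for the tumors.

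Multiple myeloma is a cancer of plasma cells, the antibody-secreting end of the B cell lineage. A mature B cell displays its antibody as a receptor together with coreceptors such as CD21 and CD23 and answers chemokines of the lymphoid follicle. On becoming a plasma cell it loses much of this equipment, widens its endoplasmic reticulum under the control of IRE1 and XBP-1s, and secretes 1 kind of antibody. Plasma cells seldom divide and depend on niches of stromal cells, which supply CXCL12, BAFF and IL-6. The comparison asks which of these features separated the tumors from the transgenic B cells.

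Array medians ran from 69.0 to 73.5 in B cells and from 69.3 to 82.9 in MM, in intensity units on a linear scale. Arrays resembled one another unequally. Over the probe sets tested, log2 values of B cell arrays correlated at 0.831 to 0.989 with each other, MM replicates 1 to 3 at 0.936 to 0.963, and MM replicates 4 and 5 at 0.923, whereas replicates 1 to 3 correlated with 4 and 5 at only 0.691 to 0.776 and replicate 6 with the other MM at 0.711 to 0.762. B cell replicates 1 and 2 were the pair at 0.989. The ratio of the 3′ to the 5′ control probe set of actin, a sign of RNA degradation when high, was 2.76 and 2.54 on B cell replicates 3 and 4 and 1.07 to 1.59 on the other 9 arrays. The median SD of log2 intensity within a group was 0.33 in B cells and 0.46 in MM, and 68.7% of the probe sets varied more in MM. In bulk RNA, fewer cells of a type and less RNA per cell cannot be told apart. The sources do not state whether each of the 6 MM arrays stands for a mouse of its own, and the p-values below then rest on variation among arrays that may be technical.

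**Figure D1:**
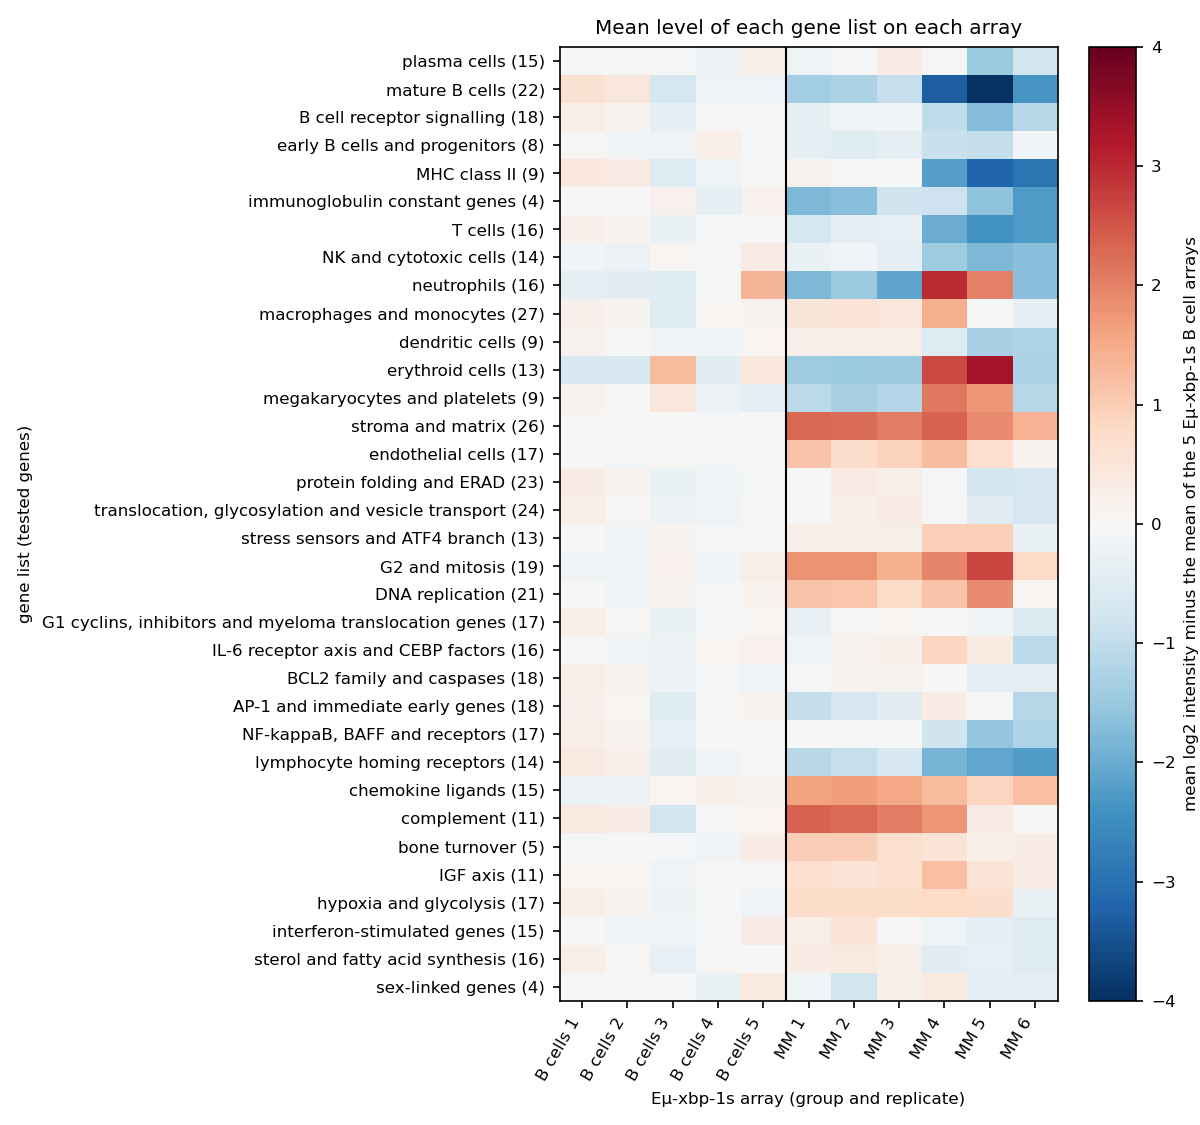
Mean log2 intensity of the tested genes of 34 gene lists (lines, with the number of genes) on the 5 Eμ-xbp-1s B cell and 6 Eμ-xbp-1s MM arrays (columns), as the difference from the mean of the B cell arrays. Stroma and matrix and G2 and mitosis are raised on all 6 MM arrays, and neutrophil and erythroid genes on MM replicates 4 and 5.

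The tumors had more RNA of mitotic and connective tissue genes and less of the receptors of resting mature B cells. In limma, 285 of 22194 probe sets were higher in MM (1.28%) and 423 were lower (1.91%) at a Benjamini-Hochberg adjusted p under 0.01. Counted by gene, each with its brightest probe set, 167 of 11241 were higher (1.49%) and 188 lower (1.67%). The 2 groups of arrays did not overlap for 160 of the higher and 178 of the lower genes, which the test nearly fixes; over all 11241 genes, all MM arrays lay above all B cell arrays for 4.36% and below them for 4.15%. An unadjusted p under 0.05, given below for lists with few calls, was reached by 12.1% of all genes upward and by 15% downward. Folds are ratios of geometric means, taken from log2 values with a floor of 50 under low intensities, and "at least" is written where arrays of the lower group lie under that floor. The bound holds for geometric means only, and for 29 of the 138 called genes with a bound the ratio of the arithmetic means was smaller. Higher probe sets made up 40.3% of the calls, and 24.7% when the arrays were scaled to 1 median. That step moved the median log2 fold change over all tested probe sets by -0.09. Leaving out B cell replicates 3 and 4, the arrays with raised 3′ to 5′ ratios, left 43 higher and 98 lower probe sets, with 3 B cell arrays in the fit, and counting replicates 1 and 2 as 1 array left 99 and 149. Both of these settings were chosen after the data had been seen. With MM replicate 1, 2 or 4 or any single B cell array left out, the number higher was 98 to 174, and it came to 470 without MM replicate 6. With MM replicate 1, 2, 4 or 5 or a B cell array other than replicate 3 left out, the number lower was 136 to 275, and it came to 737 without MM replicate 3. Of the 355 called genes, 129 (64 higher and 65 lower) passed the test whichever single array was left out, and the genes described in detail below were taken from these where possible.

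Genes of G2 and mitosis were the list with the largest share of members raised in MM among the 34 examined. Of 19 tested, 14 rose, none fell and 5 did not pass the test, and the median log2 fold change of the 19 was 1.88, against 0.01 over all genes. They were Top2a, Cdk1, Ccnb2, Aurka, Aurkb, Plk1, Bub1, Bub1b, Ttk, Nek2, Nuf2, Kif11, Cenpe and Cenpf. Several of them (Top2a, Ccnb2, Nek2, Aurka, Bub1, Cdk1 and Nuf2) are named by the study for a rise from B cells to MM on these samples, so the count is not independent evidence of its direction. These genes act at the end of the cycle: the cyclin B and CDK1 kinase starts mitosis, Aurora and Polo-like kinases build the spindle, and BUB1 and TTK hold division until every chromosome is attached.

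Promoters are shown for 4 of them, since genes of this phase are known to share CCAAT boxes and a cell cycle homology region that recruit NF-Y and the DREAM complex. The 250 bases before the RefSeq start (GRCm38.p6) are printed 5′ to 3′ on the strand of the gene, with CCAAT and the homology region core TTTGAA, on either strand, in capitals. Kif11 lies at chr19:37376132-37376381, plus strand, Ccnb2 at chr9:70421555-70421804, minus strand, Cdk1 at chr10:69352913-69353162, minus strand and Top2a at chr11:99024190-99024439, minus strand.
Kif11: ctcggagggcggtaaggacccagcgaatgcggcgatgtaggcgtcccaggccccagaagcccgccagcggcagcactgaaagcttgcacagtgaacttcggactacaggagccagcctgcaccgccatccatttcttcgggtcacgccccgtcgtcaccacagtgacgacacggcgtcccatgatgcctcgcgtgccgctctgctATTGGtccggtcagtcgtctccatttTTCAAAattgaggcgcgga
Ccnb2: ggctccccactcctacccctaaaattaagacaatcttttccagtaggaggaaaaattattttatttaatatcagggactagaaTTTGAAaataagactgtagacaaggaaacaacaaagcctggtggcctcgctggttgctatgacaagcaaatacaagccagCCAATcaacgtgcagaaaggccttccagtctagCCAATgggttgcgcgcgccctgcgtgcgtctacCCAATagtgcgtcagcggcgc
Cdk1: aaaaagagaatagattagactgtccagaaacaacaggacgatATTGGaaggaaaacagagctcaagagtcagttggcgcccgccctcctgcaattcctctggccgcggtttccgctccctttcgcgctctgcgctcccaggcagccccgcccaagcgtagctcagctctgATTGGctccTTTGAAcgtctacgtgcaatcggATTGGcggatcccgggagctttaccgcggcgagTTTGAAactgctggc
Top2a: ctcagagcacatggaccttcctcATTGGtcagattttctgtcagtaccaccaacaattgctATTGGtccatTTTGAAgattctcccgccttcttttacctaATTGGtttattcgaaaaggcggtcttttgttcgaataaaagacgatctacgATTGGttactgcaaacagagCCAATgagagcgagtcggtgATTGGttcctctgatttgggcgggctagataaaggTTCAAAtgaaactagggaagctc
Of the 14 genes that rose, 13 have a promoter in the RefSeq table. CCAAT was present in 12 of these 13 windows (92.3%), compared with 37.5% of the 27025 windows of all genes, and more than 1 copy in 7 of them, compared with 11.5%. Matches to TTTGAA were found in 4 (30.8%, against 18.3% of all), and these 4 are the windows shown. No match to one of the motifs is also a match to the other. The list was made of genes of a phase known to share CCAAT boxes, so these shares do not bear on the rise in MM. List members that did not pass the test were not counted apart. A match describes these letters only, and binding was not measured.

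Top2a encodes topoisomerase IIα, which untangles sister chromosomes. Its intensity (probe set 1454694_a_at) was 466, 385, 424, 358 and 409 on B cell replicates 1 to 5 and 2021, 1929, 1519.6, 1400.5, 2452 and 791 on MM replicates 1 to 6. All 6 MM arrays lay above all B cell arrays, with replicate 6 the lowest of them. The means were 409 ± 40.7 (SD, n = 5) and 1686 ± 578 (SD, n = 6), a rise of 3.9-fold (log2 fold change 1.97, standard error 0.26, adjusted p = 0.00105 in limma). The other tested probe set of Top2a did not pass.

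Cdk1 (probe set 1448314_at) was at 154, 149, 244, 176 and 370.1 on the B cell arrays and at 954, 1032, 598, 1186, 1996 and 641 on the MM arrays. Groups did not overlap, although B cell replicate 5 came within 2-fold of MM replicates 3 and 6. The rise was 4.77-fold (log2 fold change 2.25, standard error 0.33, adjusted p = 0.00193 in limma). Ccnb2, cyclin B2, the partner of the CDK1 kinase, stood at 146, 141, 146, 164 and 296 in B cells and at 689, 686, 522, 1473, 2611 and 401 in MM. MM replicates 4 and 5 were far above the other tumors, and B cell replicate 5 above the other B cells. Its rise of 4.98-fold (limma adjusted p = 0.00689) did not pass the test without MM replicate 1, 2 or 4 or any single B cell array (highest adjusted p = 0.0238).

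The checkpoint kinase gene Bub1 ran over 57 to 85.9 in B cells and 139 to 470 in MM and rose 3.68-fold (limma adjusted p = 0.00193). Ttk, which encodes the MPS1 checkpoint kinase, was at 37.6, 37.8, 55.5, 46.1 and 38.1 on the B cell arrays, all but replicate 3 under the floor of 50, and at 214, 178, 132, 129, 209 and 109 on the MM arrays. MM was thus the group with a measured level on every array, and the rise was at least 3.06-fold (limma adjusted p = 0.000815). Kif11, the motor that pushes spindle poles apart, rose at least 5.16-fold (log2 fold change at least 2.37, standard error 0.34, limma adjusted p = 0.00164), from 45 to 103 to 151 to 721, with 2 of its 3 tested probe sets called. Plk1 rose 2.58-fold, from 193 ± 35.3 (SD, n = 5) to 496 ± 82 (SD, n = 6), and Aurkb rose 3.83-fold, from 91.2 ± 28.2 to 356 ± 119; their limma adjusted p-values were 0.00105 and 0.00209.

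**Figure D2:**
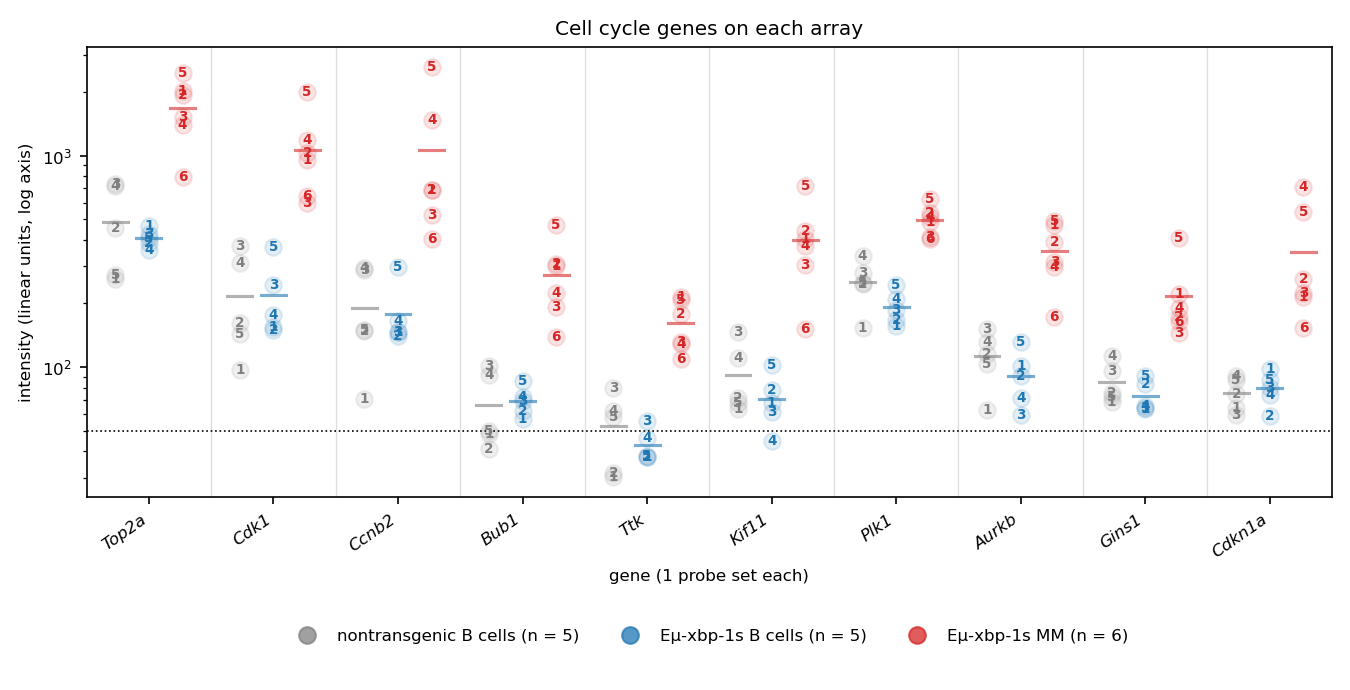
Intensity (log axis) of 10 cell cycle genes on each array. Digits are replicate numbers, bars are group means, and a dotted line marks the floor of 50 used in the test; for all 10 genes the 6 MM arrays lie above the 5 Eμ-xbp-1s B cell arrays, and MM replicate 6 is the lowest or close to it.

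Nontransgenic B cells covered 260 to 732 for Top2a and 97.3 to 376 for Cdk1, ranges that include all the Eμ-xbp-1s B cell values, and every MM array lay above them for both genes. Mean log2 intensity of the 19 mitotic genes was 7.00 to 7.42 on the B cell arrays and 8.98, 8.98, 8.59, 9.13, 9.85 and 7.98 on MM replicates 1 to 6. MM replicate 6 was the least raised and replicate 5 the most. Of the 14 genes, 7 (Aurkb, Bub1, Cdk1, Kif11, Plk1, Top2a and Ttk) passed whichever single array was left out; between 7 and 9 of the 19 passed without MM replicate 1, 2 or 4 or B cell replicate 1, 2, 4 or 5. With MM replicates 4 and 5 left out 12 passed, and with replicates 1 to 3 left out 12 passed. Without B cell replicates 3 and 4 the number was 0, with the median at 1.91.

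Mki67 and Birc5, widely used proliferation markers, did not pass the test. Mki67 was at 377, 355, 1100.5, 549.6 and 473 in B cells and at 2164, 2509.6, 1669.5, 4628, 6699 and 451 in MM. Birc5, survivin, was at 214, 190.3, 483, 247 and 279 in B cells and at 800.2, 953, 784, 1639, 3060.1 and 301 in MM. In both, 5 MM arrays lay above all the B cell arrays and MM replicate 6 within their range. Their limma adjusted p-values were 0.0372 and 0.0284, with log2 fold changes of 2.10 and 1.88. Nek2, Aurka and Nuf2 rose 2.85-fold, 3.94-fold and 4.06-fold (limma adjusted p = 0.00266, 0.00556 and 0.00379). Nek2 lost its call without B cell replicate 1 or 4 (highest adjusted p = 0.0114), Aurka without MM replicate 1, 2 or 4 or B cell replicate 1, 2, 3 or 4 (highest adjusted p = 0.0215) and Nuf2 without MM replicate 1 or B cell replicate 1, 2, 4 or 5 (highest adjusted p = 0.015).

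Genes of DNA replication followed less clearly. Of 21 tested, 2 rose and none fell, with a median log2 fold change of 0.98, and 15 had an unadjusted p under 0.05, all upward. Gins1, a subunit of the replicative helicase, rose 2.8-fold (limma adjusted p = 0.00424), from 63.5, 83, 64.1, 65.4 and 90.9 in B cells to 221, 172, 145, 191, 409 and 164 in MM. Ccne2, cyclin E2, which drives entry into S phase, rose 3.26-fold (adjusted p = 0.00995 in limma), from 53 to 153 to 192 to 694. Neither pair of groups overlapped. Gins1 was lost without MM replicate 1 or B cell replicate 1, 2, 3 or 4 (highest adjusted p = 0.017), and Ccne2 without MM replicate 1, 2, 4 or 6 or any single B cell array (highest adjusted p = 0.0322). The number that passed was 0 or 1 without MM replicate 1, 2 or 4 or any single B cell array and came to 11 without MM replicate 6, whose mean for this list, 8.46, lay within the 8.24 to 8.53 of the B cells. Pcna, the sliding clamp of DNA polymerase, was at 1583 to 2364 in B cells and 2467 to 6392 in MM without overlap (log2 fold change 0.98, limma adjusted p = 0.0251, not past the test).

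Of 17 genes on a list of G1 cyclins, cyclin-dependent kinase inhibitors and myeloma translocation genes, Cdkn1a rose and Itgb7 fell. Itgb7, an integrin chain and none of these, is also counted among the homing receptors below. Cdkn1a, the p53 target p21 that restrains cyclin-dependent kinases, was at 98, 58.6, 79.5, 73.5 and 87.3 in B cells and at 215, 260.3, 225, 709, 540.5 and 153 in MM. All MM arrays were above all B cell arrays, replicates 4 and 5 most. The rise was 3.84-fold (limma adjusted p = 0.00685) and did not pass without MM replicate 1, 2 or 5 or any single B cell array (highest adjusted p = 0.024). Ccnd1, cyclin D1, which the study names for MM, was at 265, 209, 228, 246 and 311 in B cells and at 602, 617, 363, 168, 121 and 585 in MM. MM replicates 4 and 5 lay below all B cells and the other 4 tumors above them, and the difference did not pass (log2 fold change 0.46, adjusted p = 0.522). Nontransgenic B cells were at 85.8 to 118. Ccnd2, cyclin D2, was at 1125 to 2008 in B cells and 329 to 1429 in MM (log2 fold change -1.03, adjusted p = 0.0983), and Maf, a transcription factor activated by translocation in some human myelomas, at 294 to 692 and 212 to 892 (log2 fold change -0.16, adjusted p = 0.816). The other tested probe sets of Ccnd2 had log2 fold changes of -1.86 to -1.06, and none passed, the lowest limma adjusted p being 0.0121. Median log2 fold change of the 17 was -0.16.

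Receptors and regulators of the resting mature B cell were lower in MM. Of 22 tested mature B cell genes, 6 fell (Cr2, Fcmr, Fcer2a, Fcrla, Bank1 and Cd72), none rose and 16 did not pass, although all 22 had a negative log2 fold change (median -1.99). Cr2, CD21, which binds complement fragments on antigen, was at 2925, 2694, 1398, 1631 and 1624 in B cells and at 49.4, 263, 167, 33.1, 34.6 and 129 in MM. Every tumor was below every B cell array, and replicates 1, 4 and 5 were under the floor of 50. Fcer2a, the low-affinity IgE receptor CD23, stood at 2098, 1849, 498, 1044 and 1168 and 200.5, 77.4, 352, 41.1, 63.4 and 86.5. Its groups did not overlap, B cell replicate 3 being the lowest B cell array and MM replicate 3 the highest tumor. The falls were at least 20.8-fold for Cr2 and at least 11.1-fold for Fcer2a (limma adjusted p = 0.000279 and 0.00202).

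Bank1, a scaffold of B cell receptor signaling, measured 2834, 2499.9, 1369, 2185 and 2074 in B cells and 224, 254, 619, 305, 192 and 596 in MM, with no array under the floor. It fell 6.51-fold (log2 fold change -2.70, standard error 0.33, limma adjusted p = 0.000786). Fcmr, the Fc receptor for IgM, fell from 2163 to 3809.6 to 36.4 to 487, or at least 19.2-fold (adjusted p = 0.00193), and Fcrla, an intracellular Fc receptor-like protein of germinal center B cells, from 269.7 to 1302 to 16.5 to 169, or at least 8.53-fold (adjusted p = 0.0012 in limma). Cd72, an inhibitory coreceptor, fell 3.38-fold (limma adjusted p = 0.00608) and was lost without MM replicate 1, 2 or 4 or B cell replicate 1, 2, 4 or 5 (highest adjusted p = 0.0206). Nontransgenic B cells lay above every Eμ-xbp-1s B cell array for Cr2 (3213 to 3696), Bank1 (3249.7 to 3752) and Fcmr (4284 to 4945).

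The receptor core itself divided the tumors. Ms4a1, CD20, was at 5094, 4999.9, 3397, 4351 and 5227 on the B cell arrays and at 5531, 5485, 3497, 118, 60.3 and 238 on MM replicates 1 to 6. Replicates 1 to 3 were at the level of the B cells, and replicates 4 to 6 far below. Cd79a, the signaling chain of the B cell receptor, was at 5549.7, 5387, 2777, 3550.3 and 3794 and 2649, 2202, 2644, 422, 62.8 and 3346, with replicates 4 and 5 lowest and replicate 6 within the range of the B cells. Neither passed (limma adjusted p = 0.171 and 0.183). Pax5, which holds B cell identity, was at 91.5 to 271 in B cells, 35.2 to 121 in MM and 256 to 492 in nontransgenic B cells (log2 fold change -1.08 with the floor, against B cells, adjusted p = 0.0537, not past the test). The number of mature B cell genes that fell was 5 to 9 without any 1 array, 5 without MM replicates 4 and 5, 16 without replicates 1 to 3 and 4 without B cell replicates 3 and 4. Over all probe sets, the number lower rose from 423 to 1578 without MM replicates 1 to 3. That general rise applies to the lists below as well.

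**Figure D3:**
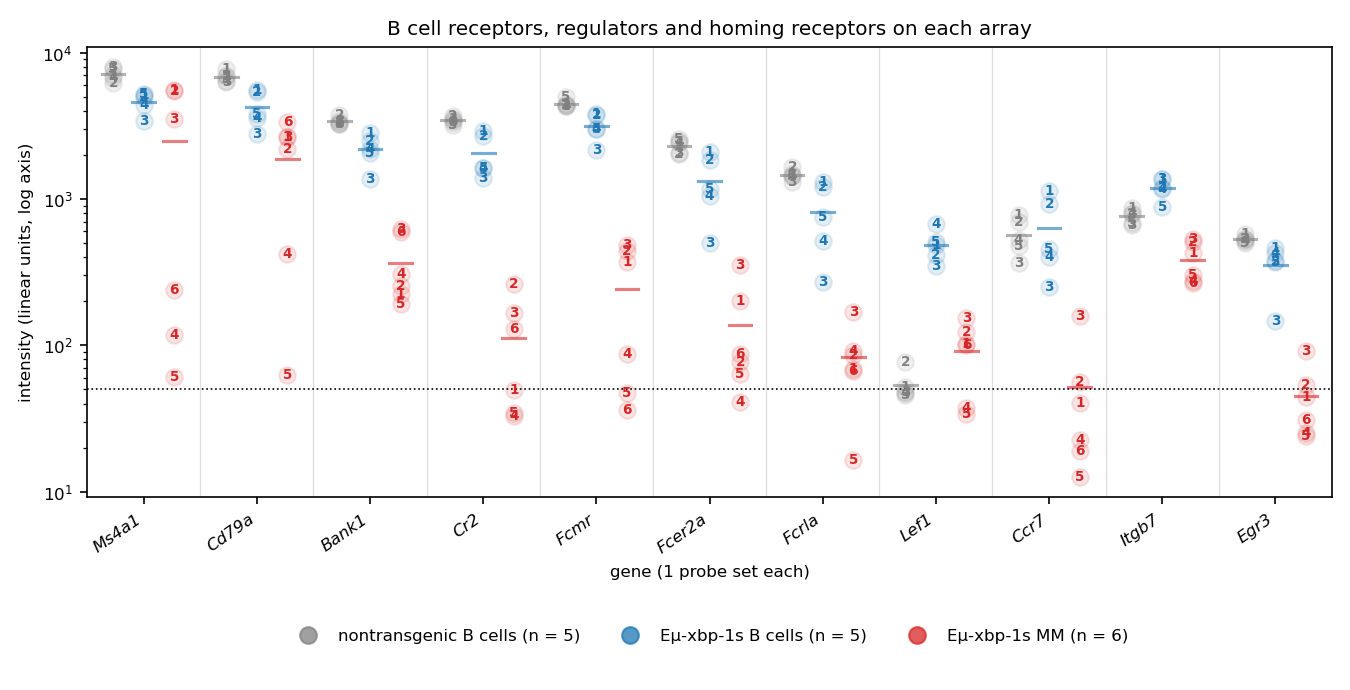
Intensity (log axis) of 11 genes of B cell receptors, regulators and homing on each array, with replicate numbers as digits, group means as bars and the floor of 50 dotted. Ms4a1 separates MM replicates 1 to 3 from 4 to 6, whereas Bank1, Cr2, Fcmr, Fcer2a, Fcrla, Lef1, Ccr7, Itgb7 and Egr3 lie lower on all MM arrays than on all Eμ-xbp-1s B cell arrays.

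Related lists gave few calls. Of 18 genes of B cell receptor signaling none passed in limma (median -0.62, 7 downward and 0 upward at an unadjusted p under 0.05), and of 9 MHC class II genes none passed (median -1.24, 3 downward). After median scaling 3 and after quantile normalization 2 genes of B cell receptor signaling fell, and without MM replicates 1 to 3, the setting with 1578 lower probe sets in all, 7 did (median -1.32). On the MHC class II list, mean log2 intensity was 11.22 to 11.43 on MM replicates 1 to 3 and 8.11 to 9.11 on replicates 4 to 6, against 10.77 to 11.71 in B cells. In that setting 8 of the 9 fell (median -2.48). Of 8 early B cell genes, Lef1 fell and none rose (median -0.28).

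Lef1, a nuclear partner of β-catenin, was at 483, 415, 346, 669.8 and 508 in B cells and at 103, 122, 153, 37.2, 33.9 and 101 in MM. All tumors were lower than all B cells, and the fall was at least 5.33-fold (limma adjusted p = 0.000986). Nontransgenic B cells were also low, at 45.7 to 76.9. Mean log2 intensity of the early B cell list was likewise lower there (6.84 to 7.00) than in B cells (7.97 to 8.43). So was that of the T cell list (6.65 to 6.78 against 8.75 to 9.21). Which cells the Lef1 RNA came from was not tested. Foxp1 and Bcl11a, chosen after their values were seen, encode factors needed for early B cell development. Foxp1 was at 1590 to 2207 in B cells and 292 to 975 in MM and fell 4.21-fold (adjusted p = 0.00181 in limma), and Bcl11a was at 616 to 919 and 121 to 409 and fell 3.77-fold (adjusted p = 0.00244 in limma; 3 of 5 probe sets). In nontransgenic B cells both were high, at 2309.8 to 2630 and 1242 to 1396.

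Egr3, an immediate early factor induced through the antigen receptor, was 1 of 18 genes of the AP-1 and immediate early list and its only fall (none rose, median -0.29). It was at 460.3, 375, 146, 427 and 370.2 in B cells and 44.3, 53.7, 90.7, 25.1, 24.1 and 31 in MM. The groups did not overlap, with B cell replicate 3 and MM replicate 3 nearest to each other, and Egr3 fell at least 5.93-fold (limma adjusted p = 0.000496). Without MM replicate 3, 3 genes of this list fell. Fos and Jun, the AP-1 subunits that the study names, did not pass: Fos was at 102 to 706 in B cells and 54 to 756 in MM (log2 fold change -0.35, adjusted p = 0.8), and Jun at 177 to 428 and 215 to 729 (log2 fold change 0.17, adjusted p = 0.805). In both genes MM replicates 4 and 5 were the highest tumors.

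Immunoglobulin genes differed from tumor to tumor. A B cell pool uses many variable segments, whereas progeny of 1 cell share the same rearrangement. Of 11 tested variable segments named on the array, 6 fell, none rose and all 11 had negative log2 fold changes (median -2.65), with 10 at an unadjusted p under 0.05. Of the 6, 4 passed without any 1 array: Igkv9-120, Igkv4-72, Igkv15-103 and Igkv6-14. Igkv9-120 was at 3708, 3407, 1806, 1418 and 3513 in B cells and at 120.2, 30.7, 115, 317, 226 and 66.2 in MM, so that each tumor stood below every B cell array. The fall was at least 21.1-fold (limma adjusted p = 0.000279; 1 of 2 tested probe sets). Igkv4-72 fell at least 20.5-fold, from 472 to 1739 to 9.62 to 92.6, Igkv15-103 at least 18.1-fold, from 567 to 1956 to 24.3 to 138, and Igkv6-14 at least 16.2-fold, from 1134 to 3125 to 25.6 to 224. Their limma adjusted p-values were 2.23e-05, 5.77e-05 and 0.000279.

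In contrast, 2 tumors each had 1 segment above all the B cell arrays. Igkv14-111 was at 1188, 1078, 1291, 538 and 1396 in B cells and at 49.6, 4593, 313, 151, 99.8 and 81.5 on MM replicates 1 to 6, high on replicate 2 alone. Igkv19-93 was at 1016, 889.9, 1043, 384 and 946 in B cells and at 135, 65.3, 1835, 142, 130.2 and 289.5 in MM, high on replicate 3 alone. Igkv6-20, at 1320.2, 1239.8, 440, 525 and 1441 in B cells, was at 96.4, 50.7, 233, 1049, 335 and 2.98 in MM, where replicate 4 reached the range of the B cells and replicate 6 was near the lowest value of the table. MM replicates 1, 5 and 6 lay below all B cell arrays for all 11 segments. None of these 3 segments passed the test (limma adjusted p = 0.133, 0.0908 and 0.0516). Variable segments are near copies of one another and a probe set may read relatives, so the name of the segment used is uncertain, and only 15 segments have a named probe set.

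Of 4 tested constant genes, Ighg3 fell and none rose (median -1.01). Ighg3, the IgG3 heavy chain, was at 3526, 3217, 5199.5, 1472 and 2155 in B cells and at 168, 127, 707, 364, 344 and 105 in MM, without overlap. It fell 11.8-fold (log2 fold change -3.56, standard error 0.49, limma adjusted p = 0.00137), and nontransgenic B cells covered 204 to 3279. Ighm, the heavy chain of IgM, was at 10942, 11236, 9867, 10628 and 12146 in B cells and at 2208, 758, 7914, 9589, 9394 and 2611 in MM. Replicates 3 to 5 stood near the B cells and replicates 1, 2 and 6 well below, and the difference did not pass (adjusted p = 0.116), although 2 of the 9 tested Ighm probe sets were called lower. Igha, the heavy chain of IgA, was at 3934, 3899, 3537, 3512 and 6096 in B cells and 3111, 11193, 1949.7, 2897, 1805 and 2570.1 in MM (adjusted p = 0.566). Replicate 2 exceeded all B cells, and it was also the tumor with the lowest Ighm and the high Igkv14-111.

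**Figure D4:**
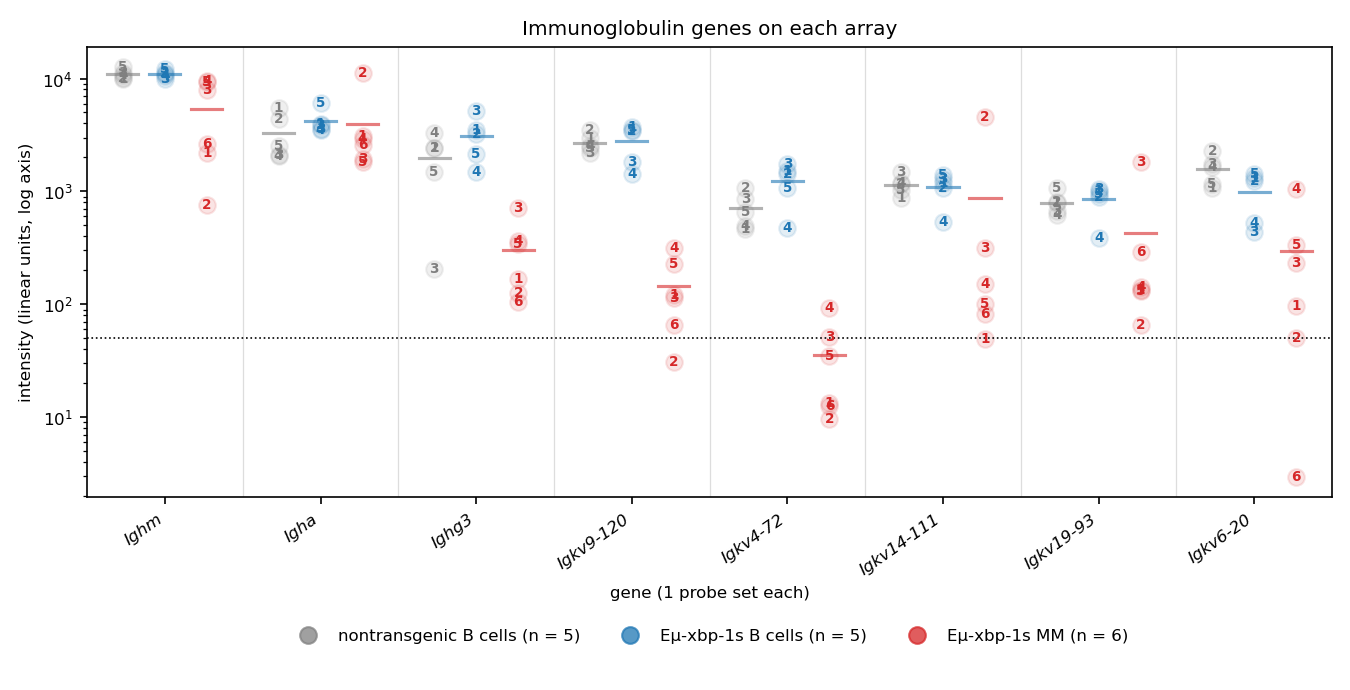
Intensity (log axis) of 3 heavy chain constant genes and 5 kappa variable segments on each array, with replicate numbers as digits, group means as bars and the floor of 50 dotted. MM replicate 2 is high for Igha and Igkv14-111 and low for Ighm, MM replicate 3 is high for Igkv19-93, and all MM arrays are low for Ighg3, Igkv9-120 and Igkv4-72.

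Plasma cell genes gave no call. Of 15 tested, none passed in limma (median -0.35, 1 downward and 0 upward at an unadjusted p under 0.05). Sdc1, CD138, the surface proteoglycan by which plasma cells are recognized, was at 195, 197, 249.6, 163 and 389 in B cells and at 110.3, 152, 264, 254, 112 and 169 in MM, with MM replicates 1, 2 and 5 below all B cells and the other 3 within their range (log2 fold change -0.45, adjusted p = 0.36 in limma). Xbp1 was at 2664, 2232, 2971, 2040.2 and 3108 and 1748, 2540.5, 3631, 4979, 1477 and 1527, with MM replicate 4 the highest (log2 fold change -0.11, adjusted p = 0.854); whether its probe set reads the transgene, the endogenous transcript or both was not determined. Jchain, which joins IgM and IgA subunits, was at 5341 to 7802 and 1620.2 to 7843, Prdm1, the repressor that starts plasma cell differentiation, at 118 to 217 and 105 to 279.6, and neither passed (limma adjusted p = 0.462 and 0.849). Irf4, a factor on which plasma cells depend, was at 919, 826, 357, 432 and 782 in B cells and 277, 259.6, 307, 190.4, 53.5 and 302 in MM. All tumors were lower than all B cells, with replicate 5 near the floor, but the difference did not pass (log2 fold change -1.62, adjusted p = 0.0375). On the plasma cell list as a whole, mean log2 intensity was 8.77 to 9.23 in B cells, 8.83 to 9.29 on MM replicates 1 to 4, 7.53 on replicate 5 and 8.27 on replicate 6.

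The secretory machinery under XBP-1s gave the same picture. Of 23 genes of protein folding and ER-associated degradation, Ero1b fell and none rose (median -0.10, or 0.02 after quantile normalization). Ero1b, an oxidase that drives disulfide bonds, was at 555 to 802 in B cells and 114 to 409.6 in MM, a fall of 2.95-fold (limma adjusted p = 0.0075; 1 of 3 probe sets), which was lost without MM replicate 1, 2 or 4 or any single B cell array (highest adjusted p = 0.0279). Hspa5, the chaperone BiP, was at 1997, 1654, 1900.1, 1645 and 1202 in B cells and 2021, 2624, 1882, 1838, 1009 and 789 in MM (log2 fold change -0.08, adjusted p = 0.888). Its groups overlapped, with MM replicates 5 and 6 the lowest. Of 24 genes of translocation, glycosylation and vesicle transport none passed (median -0.15, 2 downward and 0 upward at an unadjusted p under 0.05), and of 13 genes of stress sensors and the ATF4 branch none passed (median 0.34, 1 upward and 0 downward).

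Homing receptors of lymphocytes were among the falls. Of 14 tested, 3 fell (Ccr7, Itgb7 and Gpr183), none rose and 13 had negative log2 fold changes (median -1.44), and 9 fell without MM replicates 1 to 3. Ccr7, which guides cells into the T zone of lymphoid organs, was at 1138, 926, 251, 401 and 456 in B cells and at 40.2, 56.1, 159.7, 22.5, 12.7 and 19.1 in MM. MM replicate 3 was the highest tumor, yet below every B cell array. The fall was at least 8.82-fold (limma adjusted p = 0.0012). Itgb7, which pairs with α4 or αE integrin for entry into gut tissue, was at 1358, 1188, 1359, 1176 and 882 in B cells and at 427, 505, 529, 276, 300 and 268 in MM. It fell 3.19-fold (log2 fold change -1.68, standard error 0.23, adjusted p = 0.00137 in limma), below both the B cells and the 663 to 861 of nontransgenic B cells. Gpr183, the oxysterol receptor EBI2, fell at least 5.28-fold (limma adjusted p = 0.009) and was lost without MM replicate 1, 4, 5 or 6 or B cell replicate 1, 2, 4 or 5 (highest adjusted p = 0.0294).

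Ligands went the other way. Of 15 chemokine ligands, 3 rose (Cxcl12, Ccl8 and Cxcl13) and none fell (median 0.72). Cxcl12, by which stromal cells hold plasma cells in the marrow, was at 53.4, 62.6, 68.1, 49.4 and 30.4 in B cells, near the floor of 50, and at 2670.3, 1652, 1492, 1940.5, 1237 and 517 in MM, with replicate 6 the lowest tumor. Cxcr4, its receptor, was at 2959, 2514, 891, 1607 and 1541 in B cells and 747, 759.5, 812, 766, 814 and 527 in MM. All tumors lay below all B cells for Cxcr4, but the difference did not pass (log2 fold change -1.26, adjusted p = 0.0149). It passed after median scaling or quantile normalization, with array weights and without B cell replicate 3. Cxcl12 rose at least 25.2-fold (adjusted p = 2.23e-05 in limma). Ccl8, a monocyte chemoattractant, rose 10-fold, from 107 to 136 to 422 to 3826 (limma adjusted p = 0.00105). Cxcl13, the follicular chemokine that attracts B cells, rose 6.41-fold, from 59.2 to 122 to 147 to 1362 (limma adjusted p = 0.0055), and was lost without MM replicate 1 or 2 or B cell replicate 1, 2, 4 or 5 (highest adjusted p = 0.0182). Without MM replicate 6, 5 chemokine ligands rose.

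Among 11 complement genes, 2 rose and Cd55 fell (median 1.15). Serping1, the C1 inhibitor, was under the floor on all B cell arrays, at 27.1 to 41.5, and at 2462, 1822, 1129, 810, 596 and 319 in MM, a rise of at least 19.2-fold (limma adjusted p = 0.000252). C1s1, a protease of the C1 complex, rose at least 7.19-fold (limma adjusted p = 0.00648) and was lost without MM replicate 1 or 2 or any single B cell array (highest adjusted p = 0.023). Cd55, which protects a cell's own membrane from complement, was at 658, 556, 293, 421 and 365 in B cells and at 68.9, 82.8, 129, 142, 128 and 44.4 in MM. All 3 tested probe sets of Cd55 fell, the brightest by at least 4.7-fold (adjusted p = 0.00144 in limma). Of 11 genes of the IGF axis, 2 binding proteins rose and none fell (median 0.26). Igfbp7 was at 233, 264, 315, 142 and 126 in B cells and 2561, 2403, 2175, 6193, 2405 and 695 in MM and rose 11.2-fold (limma adjusted p = 0.000987), with replicate 4 the highest tumor. Igfbp3, under the floor in all B cells, was at 1166, 273, 217, 270.2, 184 and 103 in MM and rose at least 5.32-fold (limma adjusted p = 0.00785), which was lost without MM replicate 2, 4 or 5 or any single B cell array (highest adjusted p = 0.0256).

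Of 26 tested genes of stroma and extracellular matrix, 12 rose, none fell and 25 had positive log2 fold changes (median 1.56). Collagens of fibrous matrix (Col1a2, Col3a1 and Col5a2), of basement membrane (Col4a1 and Col4a2) and of microfibrils (Col6a2) were among them, with Bgn, Dcn, Sparc, Cxcl12, Timp3 and Serpinh1. Col1a2, a chain of type I collagen, was at 88.4, 90.9, 74.7, 67.4 and 70.5 in B cells and at 621, 984, 670.4, 634, 387 and 479 in MM. The tumors differed by under 3-fold among themselves and stood far above all B cells. The rise was 7.75-fold (log2 fold change 2.95, standard error 0.23, limma adjusted p = 2.75e-05). Col3a1, type III collagen, lay under the floor on all B cell arrays, at 21.7 to 31.7, and at 467, 877, 454, 449, 316 and 802 in MM, and rose at least 10.5-fold (adjusted p = 2.23e-05 in limma).

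Serpinh1, the chaperone HSP47 needed for collagen folding, rose 4.79-fold, from 75.4 to 138 to 302 to 672, and Timp3, an inhibitor of matrix proteases, at least 6.12-fold, from 39.3 to 92.1 to 247 to 865 (limma adjusted p = 0.000279 and 0.00147). Bgn, the proteoglycan biglycan, was at 50, 43.3, 69.4, 41 and 17.1 in B cells and 3381, 4159.7, 2993, 4426, 2713 and 789 in MM, and Sparc, a matrix protein of bone and connective tissue, at 27.2 to 44.7 and 662 to 2186. For Bgn, MM replicate 6 was the lowest tumor and still above all B cells. Both rose, Bgn at least 50.8-fold and Sparc at least 23.6-fold (limma adjusted p = 1.26e-05 and 3.27e-06), with all 3 probe sets of Bgn and 2 of 3 of Sparc called. Nontransgenic B cells were at 14.6 to 24 for Bgn and 11.6 to 29.8 for Sparc. Of the 12 genes that rose, 9 passed whichever single array was left out, 16 of the 26 passed without MM replicates 4 and 5, 10 without replicates 1 to 3 and 8 without B cell replicates 3 and 4.

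**Figure D5:**
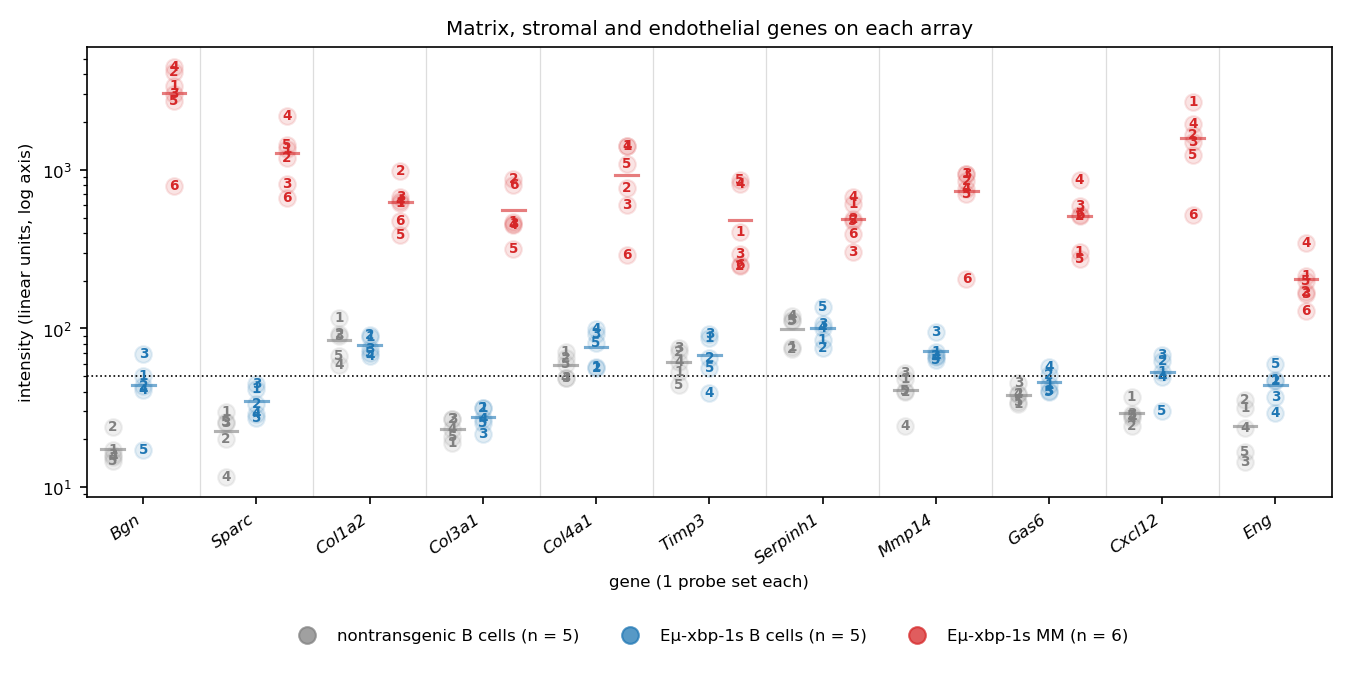
Intensity (log axis) of 11 matrix, stromal and endothelial genes on each array, with replicate numbers as digits, group means as bars and the floor of 50 dotted. All 6 MM arrays lie above all 10 B cell arrays for each gene, and MM replicate 6 is the lowest tumor for Bgn, Sparc, Mmp14, Cxcl12, Col4a1 and Eng.

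Further genes are described because they were among the 15 largest rises without overlap. Mmp14, a membrane-bound protease that cuts collagen, was at 70.8, 67.2, 94.8, 65.8 and 63.4 in B cells and 948, 853, 939.5, 763, 708 and 204 in MM and rose 9.24-fold (limma adjusted p = 0.000399). MM replicate 6 was low among the tumors. Gas6, the ligand of the TAM receptor kinases, rose at least 9.22-fold, from 39.9 to 57 to 275 to 868, and Cald1, the actin-binding protein caldesmon, at least 8.73-fold, from 38.2 to 82.1 to 272 to 1225 (limma adjusted p = 5.83e-05 and 0.000685). Gpx3, a secreted glutathione peroxidase, rose at least 8.45-fold, with 294, 427, 573, 1517, 1273 and 230.2 in MM, highest on replicates 4 and 5, and Cp, the copper ferroxidase ceruloplasmin, rose at least 11-fold, with 1026, 1138, 1169.8, 491, 342 and 148 in MM, highest on replicates 1 to 3 (limma adjusted p = 0.00204 and 0.00142).

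Of 17 endothelial genes, Eng rose and none fell (median 0.72, 12 upward at an unadjusted p under 0.05). Eng, the TGF-β coreceptor endoglin, was at 47.3, 46.5, 37, 29.3 and 59.9 in B cells and 216, 169.5, 165, 347, 198 and 129 in MM and rose at least 3.74-fold (limma adjusted p = 0.000672). Without MM replicate 6, 4 endothelial genes rose. Mean log2 intensity of the stroma list was 6.67 to 6.75 in B cells, 6.47 to 6.59 in nontransgenic B cells and 8.08 to 9.06 in MM, and that of the endothelial list 6.64 to 6.74, 6.58 to 6.68 and 6.83 to 7.93. The stroma list was highest on MM replicate 4 and the mitotic list on MM replicate 5. Whether stromal cells were present in the tumor samples, for which the sources name no sort, was not measured. What part such cells had in other differences was not tested.

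Markers of other blood cells varied among the tumors and also among the B cells. Of 16 neutrophil genes (median -0.33), 13 erythroid genes (median 0.38) and 9 genes of megakaryocytes and platelets (median -0.08), none passed in limma, with 0, 2 and 0 genes at an unadjusted p under 0.05, both erythroid genes upward. These medians depended on MM replicates 4 and 5. Without those 2 arrays they were -2.06, -1.13 and -0.95, and 5 neutrophil genes, 1 erythroid gene and 1 megakaryocyte gene were called lower, whereas without replicates 1 to 3 they were 1.08, 1.84 and 0.92, with no call. The neutrophil mean was 6.51 to 7.12 on MM replicates 1 to 3, 6.93 on replicate 6, 11.59 on replicate 4 and 10.62 on replicate 5, against 8.12 to 9.96 in B cells and 6.42 to 6.75 in nontransgenic B cells. Erythroid genes had means of 10.87 and 11.57 on MM replicates 4 and 5, 6.76 to 6.98 on the other 4, and 9.51 on B cell replicate 3 against 7.60 to 8.66 on the other B cells. The 4 other tumors were thus below the B cells for both lists. Megakaryocyte genes were at 9.88 and 9.52 on MM replicates 4 and 5, 6.44 to 6.69 on the other tumors and 7.40 to 8.21 in B cells.

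Of 16 T cell genes none passed in limma, but 11 were lower and 1 higher at an unadjusted p under 0.05 (median -1.67). After median scaling 4 of them fell, and 11 fell without MM replicates 1 to 3 (median -2.52). Their mean was 8.75 to 9.21 in B cells, 8.31 to 8.68 on MM replicates 1 to 3, 6.59 to 7.02 on replicates 4 to 6 and 6.65 to 6.78 in nontransgenic B cells. The highest means were those of the Eμ-xbp-1s B cells, which had been selected for B220. Of 14 NK and cytotoxic cell genes, 3 fell and none rose (median -1.29). Klra8, an inhibitory NK receptor, was at 189, 145, 492, 247 and 239 in B cells, 14, 45.2, 77.5, 50.5, 13.3 and 23 in MM and 52.2 to 99.8 in nontransgenic B cells. It fell at least 4.46-fold (limma adjusted p = 0.00095), with MM replicate 3 highest of the tumors and B cell replicate 3 highest of the B cells. Klrd1 fell 4.38-fold and Klre1 at least 2.97-fold (limma adjusted p = 0.00491 and 0.00305). Klrd1 was lost without MM replicate 1 or 4 or B cell replicate 1, 3, 4 or 5 (highest adjusted p = 0.0194). Klre1 no longer met the filter on low values without B cell replicate 3, 4 or 5. The number of NK genes that fell was 1 without B cell replicate 3, 4 or 5, 5 without MM replicate 3 and 10 without MM replicates 1 to 3.

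Macrophage and monocyte genes went both ways. Of 27, Ctsl and Msr1 rose and Cd163 fell (median 0.56). Ctsl, the lysosomal protease cathepsin L, was at 201, 187, 117, 190.1 and 169.9 in B cells and 891, 933, 1162, 950, 637 and 389 in MM and rose 4.6-fold (limma adjusted p = 0.0008). Msr1, a scavenger receptor, rose at least 2.88-fold (limma adjusted p = 0.00424; 1 of 3 probe sets) and was lost without MM replicate 2 or any single B cell array (highest adjusted p = 0.0156). Cd163, the hemoglobin scavenger receptor, was at 234, 264, 119, 339.9 and 229 in B cells, 8.19, 5.62, 31.8, 101, 99.3 and 65.7 in MM and 32 to 83.5 in nontransgenic B cells. It fell at least 3.41-fold (limma adjusted p = 0.00385) and was lost without MM replicate 1 or 2 or B cell replicate 1, 2, 4 or 5 (highest adjusted p = 0.0149). Of 9 dendritic cell genes, Ly6d, which B lineage cells also express, fell and none rose (median -0.19). Ly6d fell 7.8-fold (limma adjusted p = 0.00596) and was lost without MM replicate 2 or 4 or B cell replicate 1, 2, 4 or 5 (highest adjusted p = 0.0208). Mean macrophage level was 8.22 to 8.95 in B cells, 8.36 to 10.19 in MM and 7.59 to 8.09 in nontransgenic B cells.

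The 15 largest falls without overlap held further genes. Dapl1 was at 306, 296, 433, 545 and 239 in B cells, 12.1, 19.2, 24.5, 3.63, 4.08 and 58.8 in MM and 1.3 to 17.3 in nontransgenic B cells. It was above the floor in no group other than the Eμ-xbp-1s B cells, except on MM replicate 6, and fell at least 6.78-fold (limma adjusted p = 2.74e-05). Psca, a GPI-anchored surface antigen, was at 604, 584, 1329, 459 and 297 in B cells, 2.95, 1.59, 97.1, 3.57, 3.7 and 3.02 in MM and 187 to 349 in nontransgenic B cells. It fell at least 10.3-fold (limma adjusted p = 0.000217), and MM replicate 3 alone lay above the floor. Ms4a4c, a relative of CD20, fell 8.73-fold, from 997 to 1531 to 81.6 to 390.4, and Sbk1, a serine/threonine kinase, at least 8.9-fold, from 656 to 1108 to 35.4 to 337, with nontransgenic B cells at 1184 to 1739 and 885 to 1307 (limma adjusted p = 0.0012 and 0.00144).

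The IL-6 receptor and its downstream factors gave a single call. The study reports both receptor chains as raised in transgenic against nontransgenic B cells. Of these chains it names only the signaling chain again for MM. Of 16 genes of the IL-6 receptor axis and CEBP factors, Il6ra fell and none rose (median 0.04, or -0.05 after median scaling). Il6ra, the ligand-binding chain, was at 271, 233, 296, 261 and 194 in B cells, 101, 103, 166, 69.9, 67.6 and 64.3 in MM and 48.4 to 83.4 in nontransgenic B cells. The tumors were lower than all B cells, with MM replicates 1 to 3 above the nontransgenic range and replicates 4 to 6 within it. The fall was 2.77-fold (limma adjusted p = 0.00417; 1 of 2 probe sets) and was lost without MM replicate 4 or B cell replicate 1, 2, 3 or 4 (highest adjusted p = 0.0159). Il6st, the signaling chain gp130, was at 436, 382, 409, 469 and 332 in B cells and 404, 533, 596, 562, 341 and 89.9 in MM, with replicate 6 alone low (log2 fold change -0.16, adjusted p = 0.843).

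None of Cebpa, Cebpb and Cebpd passed in limma. The study reports these CEBP genes as raised in transgenic against nontransgenic B cells, with a like pattern in MM. The study does not state what MM was compared with in that report. If it was nontransgenic B cells, a gene altered alike in both transgenic groups need not differ between them. The present comparison would then not test the report. The same holds for Il6st, Ccnd1, Maf and Fos. Cebpa was at 124 to 179 in B cells and at 416, 586, 473, 252, 145 and 135 in MM, Cebpb at 299 to 777 and at 287, 498, 522, 1673, 1387 and 128, and Cebpd at 97.7 to 178 and at 176, 239, 222, 510.3, 232 and 172. Cebpa was highest on MM replicates 1 to 3 and Cebpb on replicates 4 and 5. The limma adjusted p-values were 0.179, 0.969 and 0.0541. In nontransgenic B cells Cebpb was at 96.4 to 188 and Cebpd at 8.01 to 20.7.

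Survival genes did not pass either by their brightest probe sets. The study, with its own array test, reports Bcl2 and Mcl1 as downregulated in MM against these B cells. The legend of its western blot gives less of both proteins in MM tumors and in transgenic B cells than in wild-type samples. The text of the study states that neither gene was downregulated in the premalignant B cells. Of 18 genes of the BCL2 family and caspases none was called in limma (median -0.01, or 0.07 after quantile normalization, 1 upward and 1 downward at an unadjusted p under 0.05). Bcl2 was at 1171, 940.3, 748, 878 and 776 in B cells and at 264, 489, 632, 239.8, 81.2 and 53.4 in MM, with every tumor below every B cell array and replicates 5 and 6 lowest. Its log2 fold change was -2.09 (standard error 0.56, adjusted p = 0.0342), 1 of its 5 tested probe sets was called lower, and their mean passed the test. All 5 probe sets of Bcl2 had negative log2 fold changes, from -2.44 to -0.82. Mcl1, which the study names beside it, was at 3604, 3336, 2471, 2583 and 2703 and 2554, 2392, 2494, 3442, 3056 and 1332 (log2 fold change -0.25, adjusted p = 0.533), with groups that overlapped. The other 5 tested probe sets of Mcl1 had log2 fold changes of -1.28 to -0.38, and none passed, the lowest adjusted p being 0.0163. Of 17 genes of NF-κB, BAFF and their receptors none passed in limma (median -0.74, 4 downward and 0 upward at an unadjusted p under 0.05), and 5 fell without MM replicates 1 to 3. Tnfsf13b, BAFF, which sustains B cells and plasma cells, was at 142 to 170.4 in B cells and 121 to 184 in MM (log2 fold change -0.07, adjusted p = 0.806). The study, by contrast, reports BAFF as raised in MM and not in Eμ-xbp-1s B cells. Only 1 probe set of Tnfsf13b was tested here.

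Of the remaining genes the study names, Litaf, Ifitm3, Mmp8 and Alox5 did not pass in limma (adjusted p = 0.135, 0.457, 0.574 and 0.595). Litaf was at 443 to 570.2 in B cells and above that range on 5 of 6 MM arrays (1187, 970.3, 974, 2709.5, 1239 and 294). Ifitm3 was at 1027 to 2219 and 819 to 4446, Mmp8, a collagenase of neutrophils, at 206 to 727 and 19.9 to 2296, and Alox5, 5-lipoxygenase, at 31.5 to 110.3 and 36.8 to 275. For Mmp8 and Alox5, MM replicates 4 and 5 were the highest tumors, as they were for the neutrophil list, which holds Mmp8.

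Metabolic lists gave few calls. Of 17 genes of hypoxia and glycolysis, Vegfa and Bnip3 rose and none fell (median 0.62). Bnip3, a mitophagy receptor induced at low oxygen, was at 126, 126, 123, 109.8 and 99.4 in B cells and at 350, 248, 292, 229.8, 362 and 386 in MM, without overlap, and rose 2.63-fold (log2 fold change 1.40, standard error 0.18, limma adjusted p = 0.000986). Vegfa, the vascular growth factor, was at 24.6 to 53.3 in B cells and 83.6 to 207 in MM and rose at least 2.78-fold (adjusted p = 0.00297 in limma), which was lost without B cell replicate 1, 2 or 4 (highest adjusted p = 0.0109). Without MM replicate 6, 6 genes of this list rose. Of 16 genes of sterol and fatty acid synthesis, Scd1 fell and none rose (median 0.01, or -0.08 after median scaling). Scd1, which desaturates stearate to oleate, was at 3447, 3062, 973, 2113 and 2248 in B cells and at 338, 341, 583, 127, 124 and 343 in MM. The groups did not overlap, and it fell 8.14-fold (limma adjusted p = 0.00178; 1 of 2 probe sets). Of 15 interferon-stimulated genes (median 0.13, 1 upward and 2 downward at an unadjusted p under 0.05), 5 genes of bone turnover (median 0.65, 3 upward and 0 downward) and 4 sex-linked genes (median -0.26, none in either direction), none passed in limma.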

How the data were processed

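Total RNA of 5 Eμ-xbp-1s B cell and 6 Eμ-xbp-1s MM samples, extracted with TRIzol in both groups, had been hybridized to Affymetrix mouse genome arrays. The deposited values are linear intensities, 1 for each probe set of an array. They were made by the authors in dChip, which brought every array to the array of median overall brightness and fitted a model to the perfect match less the mismatch probes. Groups and replicate numbers came from the labels. Presence calls and the SD criterion of the authors were not used, and limma took the place of their SAM test.

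Platform annotation gave 1 gene for 34958 of 45101 probe sets (34754 matched to a current symbol), several genes for 932 and no entry for 9211, which stay unnamed; 64 controls were left out. The floor for values was 50, and 22194 of 45037 probe sets were kept, those exceeding 100 on over 20% of the 11 arrays. Their log2 values went into lmFit and eBayes of limma 3.58.1 (R 4.3.3) without covariate, with Benjamini-Hochberg adjustment over all of them and a threshold of 0.01. Each gene is represented by whichever of its probe sets was brightest on average across all 16 arrays. Fold changes were taken from the floored log2 values, with "at least" where arrays of the lower group lie under the floor. Log2 fold changes are MM minus B cells. Tables and plots used matplotlib 3.10.9, numpy 2.4.6 and pandas 2.3.3 under Python 3.11.15. The fit was tested on simulated arrays of the same number, with 200 of 22194 probe sets changed. It recovered 17% of changes of 1 on the log2 scale and 78% of changes of 2, with 3 false calls. Simulated probe sets varied independently of one another, whereas the MM arrays formed groups of similar arrays. Changes were placed only in brighter probe sets. These rates may therefore not hold for the data. A gene that did not pass may still differ. No depth applies to arrays, and their number limits the precision.

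The lists (34, holding 609 genes, of which 551 have a named probe set and 503 were tested) and the genes described were chosen with earlier results of these data known; lists were counted, not tested. The rule for the genes was those the study names, the 15 largest changes without overlap in each direction, and up to 4 called members of a list, with members that define it; the text describes part of these, and Foxp1 and Bcl11a were added after their values were seen. Alternatives were no filter, a floor of 16 or of 100, 50 added as a pseudocount, quantile normalization, median scaling, array weights, trend and robust variance, the mean of probe sets per gene, all 3 groups in 1 fit, the replicate block, a threshold of 0.05, MM replicates 4 and 5 or 1 to 3 left out, and each array left out in turn. B cell replicates 3 and 4 left out, and replicates 1 and 2 averaged, were added after the data were seen. Promoter sequences and coordinates are those of RefSeq (GRCm38.p6), from which the transcribed bases were left out. Some genes are not analysed here.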

Additional observations from a re-analysis of the deposited data

Results flagged for a closer look

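Among the 103 genes described, each looked at in both groups, 28 of 206 groups held 1 array that stood apart from the others by Dixon's test at the 95% level. The test was run on values raised to the floor of 50, so 1 array above the floor is flagged at any distance when the others lie under it. Groups wholly under the floor could not be flagged but are counted in the 206. The rate of 1 in 20 that chance gives in this test does therefore not apply to these groups. The arrays concerned were B cell replicate 3 in 6 cases, replicate 4 in 5 and replicate 5 in 4, and MM replicate 6 in 5 cases, replicate 3 in 4, replicate 4 in 2, and replicates 2 and 5 in 1 each. Several values are under or just over the floor of 50.

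In B cells, replicate 3 was highest for Ttk (55.5), Ccl8 (136), Bgn (69.4) and Mmp14 (94.8) and lowest for Cebpa (124) and Egr3 (146). Replicate 4 was highest for Gas6 (57.0) and Vegfa (53.3) and lowest for Igkv14-111 (538), Igkv19-93 (384) and Jun (177). Replicate 5 was highest for Ccnb2 (296), Igha (6096), Cp (59.1) and Eng (59.9).

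In MM, replicate 6 was lowest for Bgn (789), Mmp14 (204), Il6st (89.9) and Cxcr4 (527) and highest for Dapl1 (58.8). Replicate 3 was highest for Psca (97.1), Ccr7 (160), Klra8 (77.5) and Egr3 (90.7), replicate 4 for Igkv4-72 (92.6) and Cebpd (510), and replicate 2 for Igha (11193), while replicate 5 was lowest for Irf4 (53.5). Replicates 3 and 4 of the B cells are those with raised 3′ to 5′ ratios of actin, and the part of RNA quality in these values was not tested.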

How the results depend on the processing

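Of the 103 genes described and tested, 69 passed the test. None of the 69 changed sign under any alternative, which their selection by the test nearly fixes. The counts of probe sets moved more. Higher and lower numbers came to 958 and 1394 at a threshold of 0.05, 789 and 1156 with all 3 groups in 1 fit, 2224 and 2314 with array weights, 111 and 129 with no filter on low values, 43 and 98 without B cell replicates 3 and 4, and 99 and 149 with B cell replicates 1 and 2 averaged. The higher number was 146 with a floor of 100. The lower number was 756 after median scaling, 272 without MM replicates 4 and 5 and 1578 without MM replicates 1 to 3. Fits without B cell replicates 3 and 4, with a pair averaged or with 1 array left out hold fewer arrays, and no filter adds probe sets to the adjustment; the cause of the other shifts was not tested. Leaving out 1 array gave 98 to 470 higher and 136 to 737 lower probe sets.

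The replicate numbers recur in both groups, but deviations of same-numbered arrays from their group means correlated at 0.442, 0.405, -0.284, 0.0358 and 0.195, and no B cell array correlated best with the MM array of its own number, so the numbers were not taken as pairs. With the replicate block, over replicates 1 to 5, 248 probe sets were higher and 120 lower. Calls of the described genes were lost for 42 without B cell replicates 3 and 4, 39 with no filter, 21 with the replicate block, 17 with B cell replicates 1 and 2 averaged, 16 with a floor of 100, 8 without MM replicates 4 and 5, 4 without MM replicates 1 to 3, and 0 to 3 under each of the other settings that kept all 11 arrays.

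Sign changes were seen for 14 genes that had not passed. With array weights the log2 fold change became 0.29 for Igha, 0.05 for Jchain, 0.01 for Xbp1, 0.31 for Hspa5, 0.01 for Maf, -0.15 for Cebpb, 0.24 for Il6st and -0.51 for Jun, and with the replicate block 0.02 for Xbp1, 0.12 for Hspa5, 0.05 for Maf and 0.24 for Il6st. Median scaling gave -0.05 for Cebpb. Without MM replicates 4 and 5 it was 0.02 for Hspa5, -0.71 for Cebpb, -0.26 for Jun, 0.05 for Tnfsf13b and -0.18 for Alox5, and without MM replicates 1 to 3 it was -0.16 for Prdm1, -0.13 for Ccnd1, 0.94 for Fos and 0.68 for Mmp8. Without B cell replicates 3 and 4 it was -0.10 for Prdm1, -0.01 for Cebpb and -0.06 for Jun. With 1 array left out at a time it ranged from -0.03 to 0.26 for Prdm1, from -0.32 to 0.03 for Xbp1, from -0.23 to 0.12 for Hspa5, from -0.36 to 0.05 for Maf, from -0.28 to 0.46 for Cebpb, from -0.30 to 0.24 for Il6st, from -0.80 to 0.10 for Fos and from -0.07 to 0.35 for Jun.

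Only part of the tested probe sets passed for Fcer2a, Cxcl12, Igfbp7, Igfbp3, Serpinh1 and Egr3 (1 of 2 each), Fcrla, Timp3 and Cald1 (2 of 3 each) and Cp (3 of 5).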
